A study of Mus musculus with 18 samples.

Results

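The genes described here were 9 transcription factors that pattern the early embryo and that lie outside the Hox clusters: Tbx15, Tbx5, Shox2, Zfhx4, En1, Wt1, Tcf21, Zic1 and Lhx8. They were 9 of 52093 gene symbols in the deposited expression tables, and each of the 9 has a single transcript row there. The 9 were chosen by the differences that their measured levels had shown between fat depots in these same libraries, so those differences are given as a description, with no test. RNA-seq had been run on 18 samples in 3 groups of 6: mature adipocytes from inguinal fat (iWAT adipocytes, a subcutaneous white depot), mature adipocytes from epididymal fat (eWAT adipocytes, an intra-abdominal white depot of males) and brown adipose tissue (BAT). All 3 groups came from wild type C57BL/6 males that were 16 weeks old and had eaten a high-fat diet (HFD), over 12 weeks as stated, with no transgene or drug in any group. The substrain is not settled, since the sources give C57BL/6, C57BL/6J and C57BL/6NTac. White adipocytes had been floated out of a collagenase digest, whereas BAT had been frozen as whole tissue, so the depot and the way the cells were obtained cannot be told apart in any comparison with BAT. The diet was the same in all 3 groups, so the comparisons describe depots on this diet. Whether the depots respond to the diet in different ways cannot be told from them.

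Factors of this kind are switched on while the embryo lays out its body regions and limbs, and adult mesenchymal cells often keep a part of that pattern. Fat cells of different depots arise from different parts of the mesoderm, and the set of patterning factors that they and their precursors express differs with the site. Several of the 9 are in wide use as depot markers in adipose research, Tbx15 and Shox2 for subcutaneous fat, Wt1 and Tcf21 for visceral fat, and Zic1 for classical brown fat.

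Levels below are in RPKM, a read count divided by transcript length and by library size, which corrects for transcript length and so allows genes to be compared. Between 24655056 and 42518483 reads were counted on the rows of the tables per sample, and the number of reads behind each value is given because most of the 9 were low. Ucp1, which uncouples brown fat mitochondria, averaged 1858 RPKM in BAT against 2.26 in iWAT and 0.261 in eWAT adipocytes. Adipoq, the adiponectin gene of fat cells, averaged 221, 1127 and 387 RPKM in the same order. Ucp1 thus set BAT apart and Adipoq was present in all 3 groups, but neither gene identifies a white depot or measures its purity. RNA of other cells was also present. Crisp1, Lcn5 and Adam7, which the epididymal duct expresses, had 0 or 1 read in every iWAT and BAT library. Rnase10, the other marker of that list, had 1 to 6 reads in iWAT, 0 to 7 in BAT and 0 to 43 in eWAT libraries. The 4 epididymal markers summed to 0.167 to 14.65 RPKM in eWAT, 0.0193 to 0.119 in iWAT and 0 to 0.109 in BAT libraries. The 6 macrophage markers summed to 2564 to 4134 RPKM in eWAT, 452 to 891 in iWAT and 24.5 to 48.4 in BAT, and the 7 skeletal muscle markers summed to 10.2 to 122 RPKM in BAT, 8.60 to 23.9 in iWAT and 2.12 to 7.23 in eWAT. In bulk RNA, fewer cells of one type and less RNA per cell cannot be told apart.

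Each of the 9 factors was highest in 1 of the 3 tissues. Tbx15, Shox2, Lhx8 and En1 were highest in iWAT adipocytes, Tbx5, Zfhx4 and Zic1 in BAT, and Wt1 and Tcf21 in eWAT adipocytes. Between iWAT and eWAT adipocytes the 6 values of one tissue lay wholly above those of the other for 8 of the 9 members, against 43.9% of 19623 genes tested. Between iWAT adipocytes and BAT this held for 7 of 9, against 56.5% of 19745 genes, and between eWAT adipocytes and BAT for 9 of 9, against 66.3% of 20076 genes. Nothing is read from these shares, since the members had been selected for such gaps. The pairs that did overlap were Zic1 between the white depots and Wt1 and Tcf21 between iWAT and BAT, with at most 1 read in any library on either side.

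**Figure D1:**
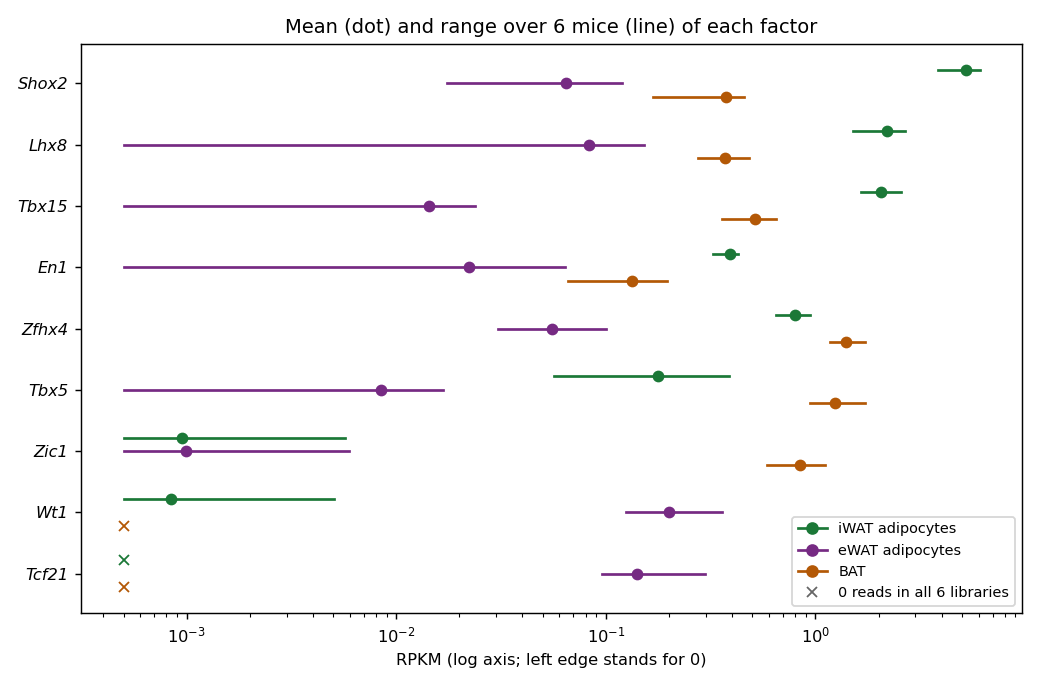
Level of each factor in RPKM on a log axis in iWAT adipocytes, eWAT adipocytes and BAT. Dots are means and lines run from the lowest to the highest of 6 mice; a line that starts at the left-most mark includes a library at 0, and crosses at that mark show 0 reads in all 6 libraries, as for Tcf21 in iWAT adipocytes and BAT. The eWAT dot is the lowest of the 3 for Shox2, Lhx8, Tbx15, En1, Zfhx4 and Tbx5, and the only one above 0.1 RPKM for Wt1 and Tcf21.

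The same model was fitted to all genes, edgeR's quasi-likelihood test on the counts after TMM scaling (trimmed mean of M values, which sets the libraries on a common scale), with a gene called at a Benjamini-Hochberg adjusted p of 0.05 or less. Genes entered a fit when their reads averaged 10 or more across its 12 libraries, and 7 of the 9 members did so in each comparison, through the tissue in which they were high. Of all genes tested between iWAT and eWAT adipocytes, 34.1% were called higher in iWAT and 34.5% higher in eWAT. Between iWAT adipocytes and BAT 38.1% were called higher in iWAT and 37.2% higher in BAT, and between eWAT adipocytes and BAT 41.1% were called higher in eWAT and 41.4% higher in BAT. The calls of the members themselves, 6 higher in iWAT and 1 in eWAT, 4 in iWAT and 3 in BAT, and 1 in eWAT and 6 in BAT, use the contrasts by which they were chosen, and nothing is read from them. The fits supply log2 fold changes with their standard errors below.

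Tbx15, a T-box factor of the limb and trunk mesenchyme, lies on the plus strand at chr3:99044304-99158183 (mm9, the build of the files, as are all gene positions here), is protein coding and has 13 exons in the files. Its level in iWAT adipocytes was 2.22, 2.12, 1.82, 1.65, 1.99 and 2.56 RPKM in mice 1, 2, 3, 4, 5 and 16, from 217 to 338 reads. In eWAT adipocytes the same 6 mouse numbers held 2, 3, 0, 1, 3 and 3 reads, at most 0.0239 RPKM. In BAT mice 1, 2, 5, 16, 17 and 18 gave 0.601, 0.440, 0.647, 0.494, 0.359 and 0.560 RPKM, from 48 to 84 reads. The 3 ranges were far apart, with iWAT on top and eWAT next to none. The means were 2.06 ± 0.318, 0.0144 ± 0.00920 and 0.517 ± 0.107 RPKM (SD, n = 6) in iWAT, eWAT and BAT, and the log2 fold changes were 7.06 (SE 0.25) for iWAT over eWAT adipocytes, 1.39 (SE 0.16) for iWAT over BAT and -5.64 (SE 0.32) for eWAT over BAT.

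Shox2, a homeobox factor that shapes the proximal limb skeleton, had the highest level of the 9 in any tissue. It lies on the minus strand at chr3:66775649-66785693, and its 5′ end overlaps that of Rsrc1, a splicing gene on the plus strand. In iWAT adipocytes mice 1, 2, 3, 4, 5 and 16 gave 5.63, 5.11, 5.18, 5.37, 3.84 and 6.08 RPKM, from 391 to 639 reads. In eWAT adipocytes the reads were 6, 2, 12, 9, 7 and 4, or 0.0175 to 0.12 RPKM. In BAT mice 1, 2, 5, 16, 17 and 18 gave 0.458, 0.423, 0.425, 0.375, 0.167 and 0.391 RPKM. Every iWAT library lay above every BAT library, and every BAT library above every eWAT library, mouse 17 being the lowest of BAT. The means were 5.20 ± 0.754, 0.0644 ± 0.0397 and 0.373 ± 0.105 RPKM (SD, n = 6) in iWAT, eWAT and BAT, with a log2 fold change of 6.39 (SE 0.26) for iWAT over eWAT adipocytes, 3.21 (SE 0.20) for iWAT over BAT and -3.15 (SE 0.36) for eWAT over BAT. Rsrc1, whose reads cannot be told from those of Shox2 where both overlap because the libraries did not keep strand, was at 2.30 ± 0.0936, 1.94 ± 0.121 and 0.852 ± 0.0637 RPKM in iWAT, eWAT and BAT (SD, n = 6), an order in which eWAT was not the lowest.

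The 250 bases before the start of Shox2 are shown because they hold the only TATA box letters among the windows available for the 9 factors. Windows were taken from RefSeq on GRCm38.p6, a later build than that of the files, and a window was found for 5 of the 9, Shox2, En1, Tcf21, Zic1 and Lhx8. The Shox2 window lies on the minus strand at chr3:66981772-66982021, and the capitals mark TATAAA. These letters lie toward the left end of the window, far from the annotated start, which follows its right end.
Shox2: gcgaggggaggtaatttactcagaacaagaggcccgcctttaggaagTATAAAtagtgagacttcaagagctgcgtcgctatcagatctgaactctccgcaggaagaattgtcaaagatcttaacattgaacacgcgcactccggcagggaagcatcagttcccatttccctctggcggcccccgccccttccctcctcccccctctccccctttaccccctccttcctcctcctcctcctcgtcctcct
The letters TATAAA, searched on both strands, occur in 12.4% of 32841 mouse windows of this length. The Shox2 window holds 11 CpG pairs, against a median of 6 (quartiles 2 and 16) over all windows. A match in letters is a description and not a site of binding.

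Lhx8, a LIM homeobox factor known from forebrain neurons and germ cells, followed the order of Shox2. Its 10-exon row lies on the minus strand at chr3:153969257-153993615. In iWAT adipocytes mice 1, 2, 3, 4, 5 and 16 gave 2.16, 2.40, 1.93, 2.56, 1.51 and 2.67 RPKM, from 115 to 210 reads. In eWAT adipocytes the reads were 0, 13, 3, 9, 3 and 11, so the libraries of mice 2, 4 and 16 held most of them. In BAT the values were 0.385, 0.483, 0.357, 0.277, 0.302 and 0.407 RPKM in mice 1, 2, 5, 16, 17 and 18. The 3 ranges did not touch. The means were 2.21 ± 0.434, 0.0828 ± 0.0636 and 0.368 ± 0.0747 RPKM (SD, n = 6), with log2 fold changes of 4.76 (SE 0.39) for iWAT over eWAT adipocytes, 1.97 (SE 0.17) for iWAT over BAT and -2.75 (SE 0.43) for eWAT over BAT.

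The nearest annotated neighbour of Lhx8, AI606473, starts 170 bases away on the opposite strand, and both windows are shown because they share 240 bases and the levels of both genes moved together. On GRCm38.p6 the Lhx8 window is chr3:154330561-154330810 on the minus strand and the AI606473 window is chr3:154330571-154330820 on the plus strand, so each reads as the reverse complement of most of the other. Neither holds a match to the motifs searched, so no letters are in capitals.
Lhx8: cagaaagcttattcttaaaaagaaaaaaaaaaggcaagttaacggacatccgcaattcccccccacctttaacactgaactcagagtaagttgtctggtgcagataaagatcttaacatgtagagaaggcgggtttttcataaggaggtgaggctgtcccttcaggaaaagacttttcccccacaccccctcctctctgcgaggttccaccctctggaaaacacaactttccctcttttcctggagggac
AI606473: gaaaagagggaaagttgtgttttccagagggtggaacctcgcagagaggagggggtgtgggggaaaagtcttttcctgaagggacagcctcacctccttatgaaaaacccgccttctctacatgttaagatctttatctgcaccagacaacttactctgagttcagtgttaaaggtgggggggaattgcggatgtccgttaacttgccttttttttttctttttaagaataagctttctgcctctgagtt
In iWAT adipocytes AI606473 had 1.63, 1.83, 1.48, 1.93, 1.20 and 2.13 RPKM in mice 1, 2, 3, 4, 5 and 16, the same order of mice as for Lhx8. The ratio of Lhx8 to AI606473 in these 6 libraries ran from 1.26 to 1.33, a coefficient of variation of 2.44% where counting error on 102 to 210 reads would give 11.6% for independent reads. In BAT that ratio ran from 0.572 to 1.70 (33.1% against 27.1% from counting) and in eWAT adipocytes from 0 to 1.04, on 8 to 52 reads of AI606473. AI606473 averaged 1.70 ± 0.333, 0.185 ± 0.0786 and 0.365 ± 0.154 RPKM (SD, n = 6) in iWAT, eWAT and BAT, the order of the tissues for Lhx8. The pair was singled out after its values were seen, and whether any fragment was counted for both rows was not tested. On the other side of Lhx8, at 34571 bases, Slc44a5 stood at 0.0379 RPKM in iWAT and 0.0154 RPKM in eWAT.

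En1, the engrailed homeobox factor of the midbrain boundary and of the ventral limb and trunk dermis, was low in every tissue. It lies on the plus strand at chr1:122498989-122504568. In iWAT adipocytes the reads were 29, 28, 26, 34, 33 and 35 in mice 1, 2, 3, 4, 5 and 16, or 0.325 to 0.427 RPKM, in eWAT adipocytes 2, 0, 2, 1, 5 and 1, and in BAT mice 1, 2, 5, 16, 17 and 18 had 17, 10, 10, 4, 10 and 16, or 0.0663 to 0.196 RPKM. On RPKM the 3 ranges did not overlap, although the highest eWAT library (0.0641 RPKM, mouse 5) and the lowest BAT library (0.0663 RPKM, mouse 16) rest on 5 and 4 reads and are not distinct at this depth. The log2 fold change was 4.09 (SE 0.36) for iWAT over eWAT adipocytes and 0.93 (SE 0.22) for iWAT over BAT. Between eWAT and BAT En1 did not reach the count minimum.

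**Figure D2:**
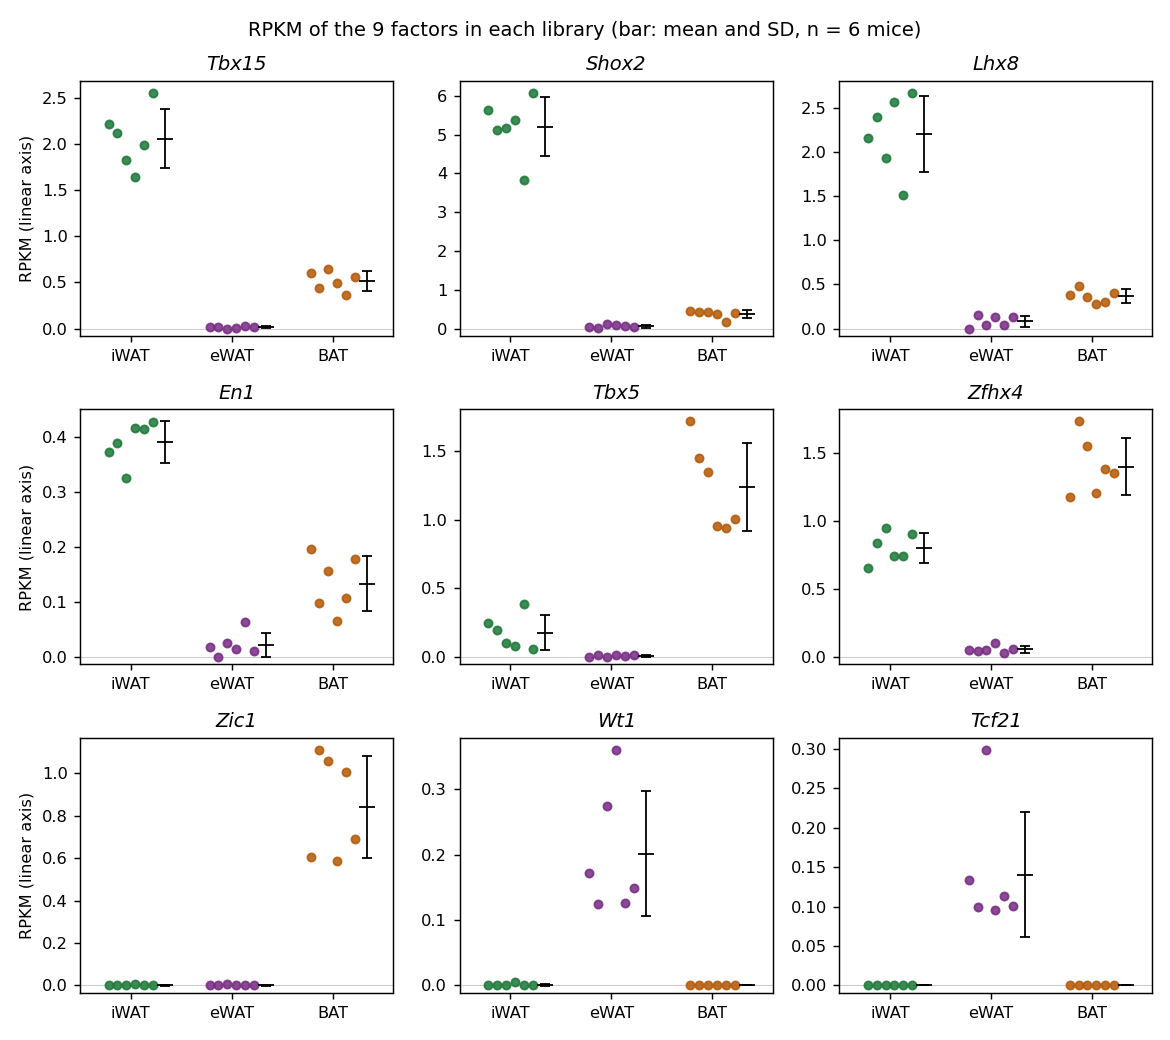
RPKM of each of the 9 factors in every library, with a linear axis of its own in each panel. Points are single mice in order of mouse number, and the black bars are the mean and SD of 6 mice. The iWAT points are highest for Tbx15, Shox2, Lhx8 and En1, the BAT points for Tbx5, Zfhx4 and Zic1, and only the eWAT points leave the baseline for Wt1 and Tcf21.

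Tbx5, the T-box factor of forelimb and heart, showed the order opposite to that of Tbx15 between iWAT and BAT. It lies on the plus strand at chr5:120282307-120335227. In BAT mice 1, 2, 5, 16, 17 and 18 gave 1.72, 1.45, 1.35, 0.957, 0.944 and 1.01 RPKM, from 99 to 256 reads. In iWAT adipocytes mice 1, 2, 3, 4, 5 and 16 had 33, 24, 14, 11, 53 and 8 reads, or 0.247, 0.195, 0.102, 0.0784, 0.389 and 0.0569 RPKM. In eWAT adipocytes they had 0, 2, 0, 2, 1 and 2 reads. No ranges overlapped, yet Tbx5 was the most uneven of the 6 members detected in iWAT, with the highest library 6.84 times the lowest and a coefficient of variation of 71.0% against the 20.5% that counting error would give. The means were 0.178 ± 0.127, 0.00842 ± 0.00716 and 1.24 ± 0.319 RPKM (SD, n = 6) in iWAT, eWAT and BAT, with log2 fold changes of 4.32 (SE 0.66) for iWAT over eWAT, -3.42 (SE 0.33) for iWAT over BAT and -7.68 (SE 0.33) for eWAT over BAT.

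Zfhx4, a very large zinc finger and homeodomain factor, rested on the most reads of the 9 in BAT. Its row of 15462 bases lies on the plus strand at chr3:5218546-5415855. In BAT mice 1, 2, 5, 16, 17 and 18 had 600, 1033, 584, 427, 757 and 713 reads, or 1.18, 1.73, 1.55, 1.20, 1.38 and 1.35 RPKM. In iWAT adipocytes the values were 0.652, 0.834, 0.945, 0.745, 0.741 and 0.900 RPKM in mice 1, 2, 3, 4, 5 and 16, and in eWAT adipocytes 0.0503, 0.0478, 0.0479, 0.10, 0.0305 and 0.0560 RPKM. The ranges were apart in all 3 comparisons, and iWAT stood much closer to BAT than to eWAT. The log2 fold changes were 3.88 (SE 0.21) for iWAT over eWAT adipocytes, -1.40 (SE 0.12) for iWAT over BAT and -5.26 (SE 0.19) for eWAT over BAT. Rows that overlap Zfhx4 (2700069I18Rik, AK051388 and AK051010) had between 0 and 3 reads in any white adipocyte library.

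Zic1, a zinc finger factor of dorsal neural tube and somites, had 2 reads in all outside BAT. Its 3-exon row lies on the minus strand at chr9:91252896-91260648. In BAT mice 1, 2, 5, 16, 17 and 18 had 113, 242, 146, 76, 201 and 133 reads, or 0.606, 1.11, 1.06, 0.587, 1.0 and 0.691 RPKM. The 6 iWAT libraries held 1 read in all (mouse 4) and the 6 eWAT libraries 1 read in all (mouse 3). Over TMM-scaled libraries the pooled reads of BAT stood to those of iWAT adipocytes in a ratio of 1328 (exact 95% interval 238 to 52520) and to those of eWAT adipocytes in a ratio of 1431 (256 to 56570), intervals that cover counting error only. The BAT libraries with the least skeletal muscle RNA, mice 2 and 17, had 1.11 and 1.0 RPKM of Zic1, both above the BAT mean of 0.843 ± 0.240 RPKM (SD, n = 6), and so was mouse 5, the library with the most (121.9 RPKM summed), at 1.06 RPKM. The part of muscle RNA in the level of Zic1 was not tested.

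The window before Zic1 is shown for its base composition and its CCAAT letters. It lies at chr9:91365769-91366018 (GRCm38.p6, minus strand) and the capitals mark CCAAT, searched on both strands and here found on this one.
Zic1: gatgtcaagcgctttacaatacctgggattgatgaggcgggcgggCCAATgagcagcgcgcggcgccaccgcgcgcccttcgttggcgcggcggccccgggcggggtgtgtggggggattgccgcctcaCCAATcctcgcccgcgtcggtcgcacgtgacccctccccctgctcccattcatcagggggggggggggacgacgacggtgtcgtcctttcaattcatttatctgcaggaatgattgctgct
The letters CCAAT, on either strand, occur in 33.9% of the 32841 windows; the Zic1 window holds 2 such matches, as does that of En1. Its 27 CpG pairs and 66.0% G and C compare with medians of 6 pairs and 52.4% over all windows. The T-box letters GGTGTGA (3.33% of windows) and the homeodomain letters TAATTA (4.84%) were in none of the 5 members' windows, and the E-box letters CANNTG (66.2%) were in those of En1 and Zic1.

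Zic4, the paralogue that faces Zic1 on the plus strand, has 2 rows in the files. The spliced row of 9 exons, at chr9:91263810-91284186 and 3162 bases from Zic1, had 39, 49, 21, 24, 37 and 26 reads in BAT mice 1, 2, 5, 16, 17 and 18 and 0 in every white adipocyte library. The second row, of 884 bases in 1 exon on the minus strand, had 5 to 14 reads in BAT and 0 in every white library. Zic4 thus had the same on and off pattern as Zic1 at a lower level, 0.114 ± 0.0211 RPKM (SD, n = 6) for the spliced row, while Zic2 and Zic5 had at most 4 reads in any library.

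**Figure D3:**
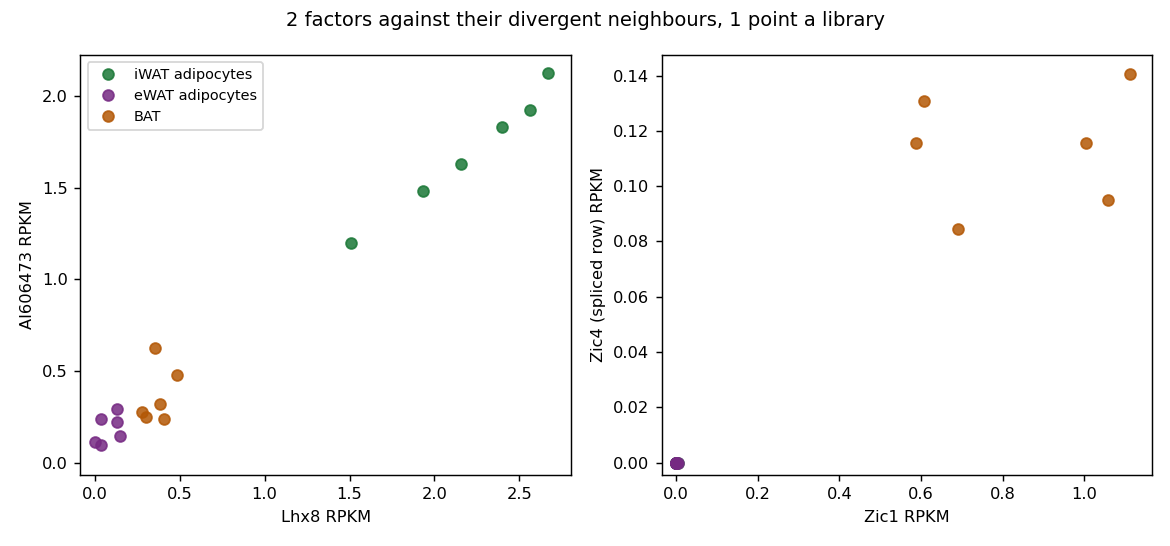
RPKM of Lhx8 against AI606473 (left) and of Zic1 against the spliced row of Zic4 (right), 1 point a library and a color for each tissue, on linear axes. The 6 iWAT points of the left panel fall close to a line and reach 2.67 and 2.13 RPKM; in the right panel all 12 white adipocyte points sit at or next to the origin and the 6 BAT points form a cloud.

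Wt1, the zinc finger factor named for Wilms tumor and a marker of mesothelium and visceral fat precursors, and Tcf21, a basic helix-loop-helix factor of visceral mesenchyme, were detected in eWAT adipocytes alone, apart from 1 read of Wt1 in the iWAT library of mouse 4. Wt1 lies on the plus strand at chr2:104966686-105038160 and Tcf21 on the minus strand at chr10:22537069-22539980. In eWAT mice 1, 2, 3, 4, 5 and 16 Wt1 had 45, 27, 52, 61, 24 and 32 reads, or 0.171, 0.125, 0.274, 0.360, 0.127 and 0.150 RPKM. Tcf21 had 13, 8, 21, 6, 8 and 8 reads, or 0.134, 0.0998, 0.299, 0.0956, 0.114 and 0.101 RPKM. Mice 3 and 4 were highest for Wt1, and mouse 3 stood apart for Tcf21. The BAT libraries held 0 reads of Wt1, which allows up to 0.00249 RPKM over the group, and the iWAT and BAT libraries 0 reads of Tcf21, which allows up to 0.00705 and 0.00673 RPKM. Set against that limit of 3 reads over the 6 libraries, Wt1 was at least 51.2-fold higher in eWAT adipocytes than in BAT, and Tcf21 at least 19.8-fold higher than in iWAT adipocytes and 13.6-fold higher than in BAT, on TMM-scaled libraries. Against the 1 read of iWAT the ratio for Wt1 was 224 (exact 95% interval 39.8 to 8873).

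Even where they were highest, Wt1 and Tcf21 were low, and RNA from other cell types of the depot moved with the tissue. Their eWAT means, 0.201 ± 0.0955 and 0.140 ± 0.0787 RPKM (SD, n = 6), lay near the middle of the 30975 genes with an Entrez ID, at the 49.7 and 47.6 percentiles. Several mesothelial markers were likewise higher in eWAT libraries. Upk3b had 21 to 126 reads in eWAT and at most 4 in any other library, Msln 5 to 39 against at most 1, and Krt8 2 to 53 against 0. Krt7 did not follow this, with 0 to 9 reads in eWAT, 1 to 13 in BAT and 0 in iWAT. All 11 mesothelial markers had reads in eWAT, while 4 of 11 were at 0 in iWAT and 4 in BAT; the summed level of the list was 2.59 to 7.29 RPKM in eWAT, 2.18 to 2.76 in iWAT and 7.26 to 10.1 in BAT, where nearly all of it came from Lrrn4 (8.30 RPKM). Mouse 4 was highest for both Wt1 and Upk3b (1.35 RPKM), and mouse 16, second for Upk3b at 0.913 RPKM, ranked below mice 3, 4 and 1 for Wt1. Over the 6 eWAT mice the mean log2(RPKM + 0.1) of the 11 markers had r = 0.559 with Wt1 and -0.128 with Tcf21. Exact permutation of r gave p = 0.224 and 0.786, adjusted p = 0.65 and 0.892. The part of mesothelial RNA in the levels of Wt1 and Tcf21 was not tested. In mouse 5, where Lcn5 and Adam7 had 0 reads and Crisp1 7, Wt1 was at 0.127 and Tcf21 at 0.114 RPKM, and over mice 2, 4 and 5, the libraries with the least epididymal RNA, Wt1 averaged 0.204 and Tcf21 0.103 RPKM, a subset chosen after its values were seen. The part of epididymal RNA was not tested either.

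**Figure D4:**
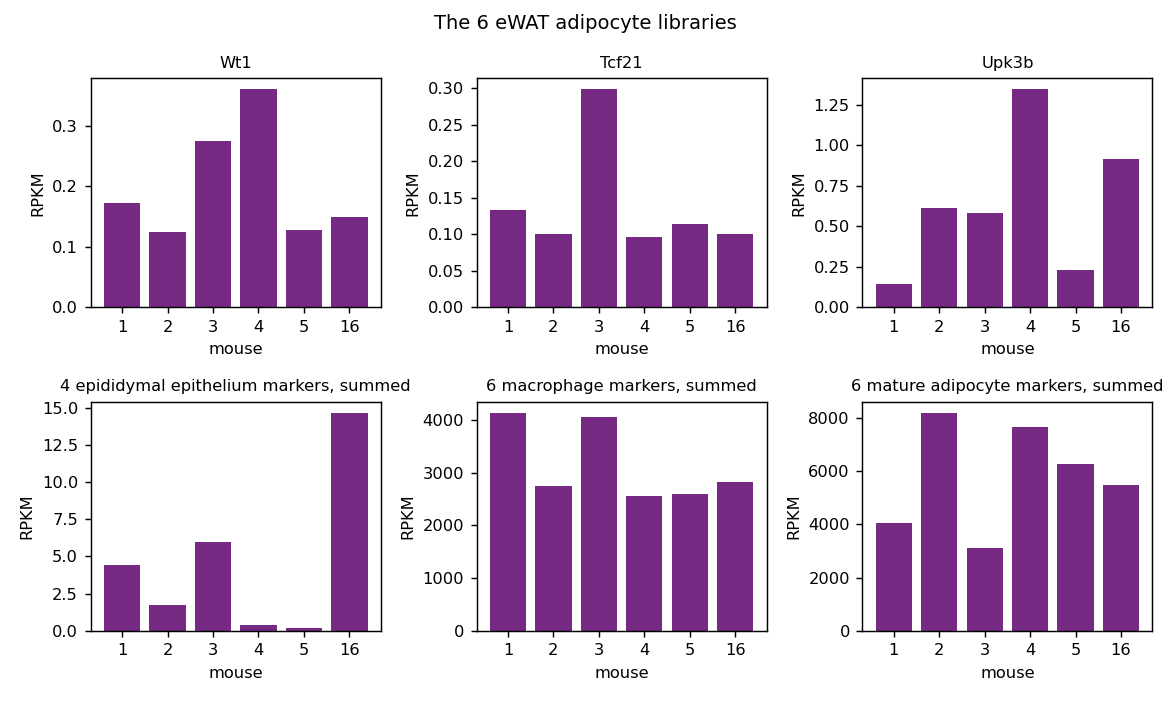
RPKM in the 6 eWAT adipocyte libraries of Wt1, Tcf21 and the mesothelial gene Upk3b (top) and of 3 summed marker lists (bottom), 1 bar a mouse, each panel with a linear axis from 0. Wt1 and Tcf21 are present in mice 4 and 5, where the epididymal markers sum to 0.360 and 0.167 RPKM, and Tcf21 is highest in mouse 3, which has the lowest sum of mature adipocyte markers (3126 RPKM).

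Each tissue had an order of the factors of its own. In iWAT adipocytes the mean levels ran Shox2 (5.20 RPKM), Lhx8 (2.21), Tbx15 (2.06), Zfhx4 (0.803), En1 (0.391) and Tbx5 (0.178), and each stood above the next in all 6 libraries except for Lhx8 and Tbx15, which were in this order in 4 of 6. In BAT they ran Zfhx4 (1.40), Tbx5 (1.24), Zic1 (0.843), Tbx15 (0.517), Shox2 (0.373), Lhx8 (0.368) and En1 (0.134 RPKM), where Shox2 and Lhx8 were in this order in 3 of 6 libraries and the first 2 steps in 5 of 6. In eWAT adipocytes Wt1 stood above Tcf21 in 5 of 6 libraries, and Lhx8, Shox2 and Zfhx4, at 0.0828, 0.0644 and 0.0554 RPKM, were not in a steady order, each standing above the next in 3 of 6. No factor reached a mean of 1 RPKM in eWAT.

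Across the 18 libraries the genes most like each member in log2(RPKM + 0.1) were searched among 16546 genes. These correlations describe how levels differ between 3 tissues, since the libraries of a tissue share its level, and they carry no p. The best match of Tbx15 was Hoxa7 (r = 0.966), a Hox gene at 3.47, 0.644 and 2.04 RPKM in iWAT, eWAT and BAT, followed by the member En1 (0.964) and Myom3 (0.960). Shox2 was matched by Rpl39l (0.968), a ribosomal protein paralogue at 5.99, 0.199 and 0.956 RPKM in iWAT, eWAT and BAT, by AI606473 (0.968) and by Lhx8 (0.966). En1 was matched by the same Rpl39l (0.973), then by Tbx15 and Shox2, and Lhx8 by Vangl1 (0.970), a planar cell polarity gene, by Shox2 and by Rbms2 (0.965). Tbx5 was closest to Rnf152 (0.984), Ccr10 (0.978) and Cdh2 (0.977), the N-cadherin gene, with means of 2.51 to 6.85 RPKM in BAT and at most 1.07 RPKM in a white depot. Zfhx4 was closest to Gpx8 (0.979), Nrn1 (0.977) and Epm2aip1 (0.974). Zic1 was closest to A530050N04Rik (0.997), Slc27a2 (0.997), a very long chain fatty acid transporter at 12.4 RPKM in BAT and at most 0.0117 RPKM in the white depots, and Gm10032 (0.996). Wt1 was closest to Gm7455 (0.972), LOC100503293 (0.971) and Cadps (0.969), and Tcf21 to Slit1 (0.965), Fyb (0.963) and Mxi1 (0.962), of which Fyb is a gene of blood cells. Among the members themselves the 6 pairs of Tbx15, Shox2, Lhx8 and En1 had r from 0.932 to 0.966, Wt1 and Tcf21 had 0.933, and Tbx5 and Zic1 0.903.

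Whether a factor rose and fell with a cell type among mice of the tissue where it was highest was asked with 45 correlations, 9 members by 5 marker lists, each over 6 mice. The score of a list in a library was the mean log2(RPKM + 0.1) of its genes. None passed an adjusted p of 0.05 by exact permutation test of Pearson's r with Benjamini-Hochberg adjustment over the 45; 5 had an unadjusted p under 0.05, and the smallest adjusted p was 0.125. Lhx8 went with mature adipocyte markers in iWAT (r = 0.938, rho = 0.886, exact permutation p = 0.00972 and 0.0333, adjusted p = 0.125 and 0.50, two-sided, r = 0.673 without the 2 farthest mice). Tcf21 in eWAT had r = 0.824 with macrophage markers (rho = 0.943, exact permutation p = 0.00694 and 0.0167, adjusted p = 0.125 and 0.375, r = 0.604 without the 2 farthest mice). It had r = -0.872 with mature adipocyte markers (rho = -0.943, exact permutation p = 0.00972 and 0.0167, adjusted p = 0.125 and 0.375, r = -0.458 without the 2 farthest mice) and r = -0.866 with skeletal muscle markers (rho = -0.829, exact permutation p = 0.0153 and 0.0583, adjusted p = 0.138 and 0.525, r = -0.196 without the 2 farthest mice). Most of the muscle list was near the floor in eWAT libraries. Ckm had 2 to 4 reads there, Myh4 0 to 1, Myh1 0 to 3, Tnnt3 0 to 2 and Mylpf 2 to 7. Wt1 in eWAT had r = 0.864 with progenitor and fibroblast markers (rho = 0.714, exact permutation p = 0.0111 and 0.136, adjusted p = 0.125 and 0.875, r = 0.812 without the 2 farthest mice). With 6 mice none of these 5 relations held after adjustment. So few mice give so few orders to permute that no single correlation, even a perfect one, could pass alone over the 45. Nothing is therefore read from the lack of a pass.

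Family relatives of the 9, which share their DNA-binding domains, were next counted from a list that left out the members. Of 50 relatives found in the files, 18 could be tested between iWAT and eWAT adipocytes; 10 were called higher in iWAT, 2 in eWAT and 6 were not called, with a median log2 fold change of 1.28 against 0.0014 over all genes. Markers of other cells moved the same way: the 4 endothelial markers, all called higher in iWAT, summed to 181 to 511 RPKM in iWAT and 59.4 to 146 in eWAT (74.8 to 176 in BAT), and the 7 progenitor and fibroblast markers, of which 4 were called higher in iWAT and 0 in eWAT, to 533 to 673 and 104 to 242 RPKM (57.4 to 78.6 in BAT). Mature adipocyte markers moved this way too, with 5 of 6 called higher in iWAT and a median log2 fold change of 1.27. Macrophage, mesothelial and epididymal markers went the other way, with 6 of 6, 5 of 6 and 3 of 3 tested called higher in eWAT. The part of these cell types in the changes of the relatives and of the lists that follow was not tested. Tcf15, a basic helix-loop-helix factor of somites and fat endothelium, was at 10.3 ± 3.30 RPKM in iWAT and 1.69 ± 0.319 in eWAT adipocytes (SD, n = 6; log2 fold change 2.61, SE 0.21, edgeR adjusted p = 5.3e-07). Tbx2, a T-box repressor, was at 1.53 ± 1.02 and 0.377 ± 0.110 RPKM (SD, n = 6; edgeR adjusted p = 0.0011), Twist2, a mesenchymal factor, at 1.47 ± 0.224 and 0.369 ± 0.115 RPKM (edgeR adjusted p = 2.6e-06) and Lhx6, the LIM factor closest to Lhx8, at 1.41 ± 0.641 and 0.403 ± 0.148 RPKM (edgeR adjusted p = 0.00024). Between iWAT and BAT 8 of 19 were called higher in iWAT and 7 in BAT, and between eWAT and BAT 7 of 20 higher in eWAT and 12 in BAT, with medians of 0.21 and -0.94 against 0.014 and -0.017 over all genes. Without TMM scaling these splits became 11 and 3 for iWAT against BAT and 8 and 6 for eWAT against BAT, so that the majority of the latter changed side, while those of all genes became 13703 and 3054, and 12965 and 4061.

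Among called relatives with a mean of at least 1 RPKM in the higher tissue, the 3 largest rises over BAT were those of Egr genes. This held in either white depot. Egr genes share zinc fingers with Wt1 but are known as immediate early genes rather than as patterning factors. Egr1 averaged 372 ± 107 RPKM in iWAT and 180 ± 35.7 in eWAT adipocytes and 6.55 ± 4.25 in BAT (SD, n = 6; log2 fold change 5.21 and 4.19, edgeR adjusted p = 3.5e-09 and 2.1e-08). Egr2 averaged 35.2 ± 12.5, 55.3 ± 5.55 and 0.481 ± 0.594 RPKM (SD, n = 6) in iWAT, eWAT and BAT (log2 fold change 5.54 and 6.22, edgeR adjusted p = 8e-08 and 1.4e-08). Egr3 averaged 4.63 ± 3.54, 6.22 ± 1.85 and 0.495 ± 0.513 RPKM in the same order (log2 fold change 2.56 and 3.04, edgeR adjusted p = 0.00061 and 2.9e-05). Egr4, below the 1 RPKM asked of named genes and added here after its values were seen, had the largest fitted change, with 0 reads in every BAT library against means of 0.397 RPKM in iWAT and 0.476 RPKM in eWAT. Digestion of the white depots and freezing of BAT separate the groups in the same way, and cannot be told apart from depot. Tcf15 was higher in BAT than in eWAT adipocytes (11.3 ± 3.86 RPKM; log2 fold change -3.33, edgeR adjusted p = 1.1e-09), and Twist2 was lower in BAT than in iWAT adipocytes (0.464 ± 0.124 RPKM; log2 fold change 1.06, edgeR adjusted p = 2.6e-05).

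**Figure D5:**
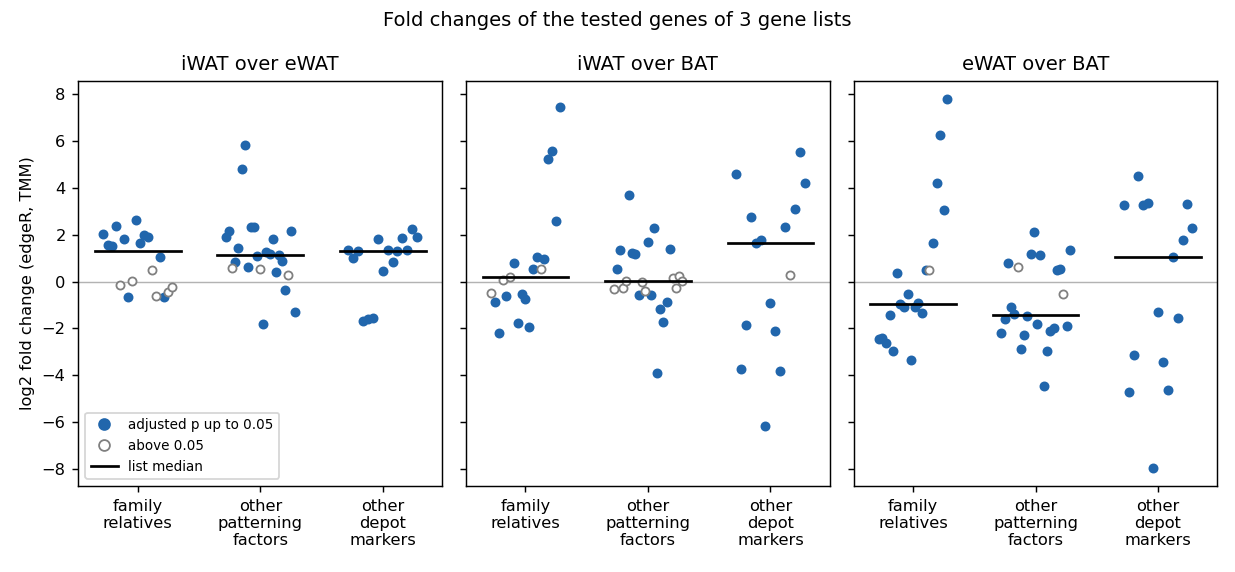
Log2 fold change of every tested gene of the 3 lists in the 3 comparisons; filled points passed an adjusted p of 0.05 by edgeR, open points did not, and black lines are list medians. For iWAT over eWAT adipocytes the medians are 1.28, 1.15 and 1.30, and most filled points lie above 0, whereas the relatives and the patterning factors lie mostly below 0 for eWAT over BAT.

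A second list held 47 other patterning factors (Meox, Pitx, Irx, Pax, Fox and other families). Between iWAT and eWAT adipocytes 17 of 23 tested were called higher in iWAT and 3 in eWAT, between iWAT and BAT 8 of 23 higher in iWAT and 6 in BAT, and between eWAT and BAT 7 of 22 higher in eWAT and 13 in BAT. The median log2 fold changes were 1.15, 0.012 and -1.42. Without TMM scaling the split between iWAT and BAT was 14 and 3, and that between eWAT and BAT 8 and 12. Irx2 and Irx1, Iroquois homeobox factors below the 1 RPKM asked of named genes and added after their values were seen, had the largest fold changes between the white depots, at 0.33 against 0.0055 and 0.451 against 0.014 RPKM in iWAT and eWAT. Meox2 and Meox1, mesoderm homeobox factors, were at 18.7 ± 5.88 and 4.24 ± 1.61 RPKM in iWAT against 4.19 ± 1.68 and 1.14 ± 0.240 RPKM in eWAT (edgeR adjusted p = 1.2e-05 and 8.6e-06). Prdm16, a co-regulator of brown and beige fat identity, was at 1.90 ± 0.295, 0.538 ± 0.153 and 2.81 ± 0.457 RPKM in iWAT, eWAT and BAT, with log2 fold changes of 1.83, -1.18 and -2.98 (iWAT over eWAT, iWAT over BAT, eWAT over BAT; edgeR adjusted p = 1.4e-06, 8.5e-08 and 1.4e-10). Foxc1 and Irx3 were higher in iWAT than in BAT, at 1.28 against 0.258 and 4.45 against 1.27 RPKM (edgeR adjusted p = 0.00012 and 0.00067). Meox1 and Meox2 were higher in BAT than in eWAT adipocytes (log2 fold change -2.19 and -1.61, edgeR adjusted p = 3.9e-10 and 3e-06). Meox1, Meox2 and Prdm16 were lowest in eWAT adipocytes, as were 6 of the 9 members.

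The last list held 17 genes known as depot markers that are not patterning factors. Between iWAT and eWAT adipocytes 12 of 15 tested were called higher in iWAT and 3 in eWAT, between iWAT and BAT 8 higher in iWAT and 6 in BAT, and between eWAT and BAT 8 higher in eWAT and 7 in BAT, with medians of 1.30, 1.64 and 1.04. Retn, the resistin hormone, was at 174 ± 39.0 RPKM in iWAT against 37.4 ± 20.4 in eWAT and 2.52 ± 0.810 in BAT, and Nnat, an imprinted membrane protein, at 187 ± 28.2, 50.3 ± 22.8 and 6.83 ± 2.22 RPKM (SD, n = 6; edgeR adjusted p of iWAT over eWAT 0.00019 and 8.6e-05). Car4, a carbonic anhydrase, was at 18.9 ± 6.09 RPKM in iWAT and 5.26 ± 0.856 in eWAT (edgeR adjusted p = 3.2e-06), and Cd40 fell by 1.61 on the log2 scale in iWAT against eWAT (1.07 ± 0.368 and 3.26 ± 0.555 RPKM, edgeR adjusted p = 8.2e-06). Slc7a10, an amino acid transporter of white fat, was at 62.0 ± 10.1 RPKM in iWAT and 1.68 ± 0.330 in BAT (edgeR adjusted p = 1e-12). On the brown side Mpzl2 was at 7.80 ± 0.675 RPKM in BAT against 0.168 ± 0.0595 in iWAT and 0.0490 ± 0.0303 in eWAT adipocytes (edgeR adjusted p = 6.2e-13 and 2.8e-13), P2rx5, an ATP-gated channel, at 17.1 ± 2.05 against 0.982 ± 0.459 in eWAT (edgeR adjusted p = 2.9e-10), Pdk4 at 316 ± 74.9 against 19.2 ± 5.13 (edgeR adjusted p = 1.6e-11) and Oplah at 25.03 ± 5.29 against 3.43 ± 1.09 (edgeR adjusted p = 2e-10).

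Of the other genes next to the 9 factors, some kept their order and some did not. Wars2, 1195 bases before Tbx15, was at 1.14 ± 0.0606 and 0.955 ± 0.0734 RPKM in iWAT and eWAT adipocytes (SD, n = 6), where Tbx15 itself went from 2.06 to 0.0144. Veph1 and Mlf1, on either side of Shox2, had means in the order of iWAT, eWAT and BAT, 0.210, 0.0746 and 0.00924 RPKM and 0.750, 0.336 and 0.235 RPKM. Rbm19, beyond Tbx5, was at 2.48, 3.11 and 1.32 RPKM in iWAT, eWAT and BAT, whereas Tbx5 was highest in BAT. Gm5563, 507 bases before Tbx5 on the opposite strand, had at most 4 reads in any library. Eya4, at 282789 bases from Tcf21, was at 1.64 ± 0.203 RPKM in eWAT, 0.725 ± 0.0938 in iWAT and 0.0264 ± 0.0187 in BAT (SD, n = 6), with no overlap between the tissues. Marco, near En1, was at 0.501 and 0.533 RPKM, and Ccdc73, near Wt1, at 0.323 and 0.299 RPKM in iWAT and eWAT.

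The white depots had been sequenced on lanes 1 and 2, with 2 iWAT and 4 eWAT libraries on lane 1 and 4 and 2 on lane 2, and BAT on lanes 3 and 4. Within lane 1 and within lane 2 the same 8 of 9 members separated iWAT from eWAT without overlap. These 8 did so over all libraries of the white depots, and splitting those libraries by lane cannot create an overlap. The count could therefore not fall, and it does not test the part of the lane. Mean Tbx15, for example, was at 2.02 RPKM in iWAT against 0.0134 in eWAT on lane 1, and 2.08 against 0.0163 on lane 2. BAT shared no lane with a white depot, so its lanes cannot be separated from its tissue. On the library scale, log2 fold changes against BAT rest on the TMM factors, which averaged 1.21, 1.27 and 0.658 in iWAT, eWAT and BAT. Without them the median gene shifted to 0.87 for iWAT over BAT and 0.89 for eWAT over BAT, and the members shifted with it: Zfhx4 went from -1.40 to -0.55, En1 from 0.93 to 1.77 and Lhx8 from 1.97 to 2.81 for iWAT over BAT, with no change of sign.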

How the data were processed

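Total RNA with an integrity number above 8 had been made into NEBNext Ultra libraries, which do not keep strand. The authors trimmed reads with cutadapt 1.16 and aligned them to mm9 with HISAT2 2.1.0 (processing notes). The deposited tables give a read count and an RPKM value for each of 53445 transcript rows. The counting tool is not given in the sources used here, and the total that the authors' RPKM values imply is 22935346 to 41145280 reads. That total lay below the reads on the rows in every BAT library (medians 33546480 and 37643115). In every white library it lay above them (30293748 and 28898601 in iWAT, 31621318 and 28885180 in eWAT). The part of this in RPKM differences between BAT and the white depots was not tested. One label field states regular chow, whereas titles, design and extraction text state HFD, which was followed. For symbols with several rows (1220 of 52093) the row with the highest mean RPKM was used. Counts were tested with edgeR 4.0.16 (R 4.3.3; quasi-likelihood, TMM, mean count of at least 10, each comparison on its 12 samples; Benjamini-Hochberg), checked on simulated counts; RPKM values served for levels, SDs and correlations on log2(RPKM + 0.1). Alternatives used DESeq2 1.42.0, limma 3.58.1, no TMM, no filter, a replicate block, a lane term, summed rows and samples left out. Floors are 3 reads; intervals are exact binomial. Members, lists and alternatives were chosen with earlier results of these data known. Named besides members were the 3 most alike genes, nearest neighbours, and from each list the 4 called genes with the largest fold change and a mean of at least 1 RPKM in the higher tissue; some genes that this rule names are not reported here. The 6 libraries of a group carry different mouse numbers; p-values measure the spread between them. No libraries of a tissue looked like a library deposited again: the closest pair differed 15.67 times more (chi-square over its degrees of freedom) than counting noise. Intervals and floors cover counting error only.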

Additional observations from a re-analysis of the deposited data

Results flagged for a closer look

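In groups of 6 values, a library that stood apart from the others was looked for by Dixon's ratio of its gap to the whole range. Of 24 groups 6 held one. Chance would mark about 1 in 20 groups (1.2 of 24), but that rate does not hold for groups with a single read. In such groups, the last 3 below, the ratio is always 1, so nothing is read from the excess. Shox2 in the BAT library of mouse 17 was at 0.167 RPKM (20 reads), below the 0.375 to 0.458 of the others. Zfhx4 in the eWAT library of mouse 4 was at 0.10 RPKM (41 reads) against 0.0305 to 0.0560. Tcf21 in the eWAT library of mouse 3 was at 0.299 RPKM (21 reads) against 0.0956 to 0.134; that library also had the lowest sum of mature adipocyte markers (3126 RPKM), and the part of this in its Tcf21 level was not tested. In the other 3 groups 1 library held the only read: Wt1 in the iWAT library of mouse 4 (0.00504 RPKM), Zic1 in the same library (0.00569 RPKM) and Zic1 in the eWAT library of mouse 3 (0.00596 RPKM).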

How the results depend on the processing

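No fitted member log2 fold change changed sign under an alternative run. The side with more calls did change in places: for the relatives between eWAT and BAT from 7 and 12 to 8 and 6 without TMM, and for the nearly even splits of all genes, from 6689 and 6765 to 7030 and 6689 under DESeq2 (iWAT and eWAT), from 7528 and 7336 to 9479 and 9988 with no filter (iWAT and BAT) and from 8243 and 8318 to 12965 and 4061 without TMM (eWAT and BAT). Counts of all genes called stayed within 1.5 times of those given under all 61 refits, as did 182 counts of the lists and all but 1; with no filter on low counts, 31 in place of 20 other patterning factors were called between eWAT adipocytes and BAT, out of 45 tested in place of 22. Scaling RPKM by TMM moved 7 member means by more than 1 SD and left 17 within it. In BAT the moved means became 0.708 (Tbx15), 1.68 (Tbx5), 0.511 (Shox2), 1.90 (Zfhx4), 1.14 (Zic1) and 0.498 (Lhx8). In iWAT adipocytes that of En1 became 0.344. The counts of members that did not overlap stayed at 8, 7 and 9 on that scale. They also stayed so with the eWAT libraries of mice 2, 4 and 5 alone or the BAT libraries of mice 2 and 17 alone. These subsets were chosen after seeing the data. Leaving libraries out cannot create an overlap, so the subset counts could not fall and do not test the part of epididymal or muscle RNA. Among refitted member log2 fold changes 292 stayed within 1 SD between mice and 51 moved further, of which 14 and 16 under limma on RPKM with a pseudocount of 0.1 and 1, 11 without TMM, 3 with the block and 7 with a library left out. Leaving out 1 library at a time gave 12667 to 13562, 14434 to 14833 and 16270 to 16552 genes called (iWAT over eWAT, iWAT over BAT, eWAT over BAT). The same mouse number was not shown to pair samples: deviations of same-numbered libraries had r from -0.241 to 0.42, -0.143 to 0.0979 and -0.0383 to 0.0668. Such correlations cannot exclude that same-numbered libraries came from the same animal, and the main fits treat all libraries as independent. With the replicate block 12836, 12555 and 15149 genes were called, and of the lists 12, 18 and 15, 13, 11 and 14, and 19, 20 and 15. Low counts set the limit: En1, Wt1 and Tcf21 rest on at most 61 reads in any library.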
